A study of Mus musculus with 8 samples.

Results

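A set of 10 genes that carry bile acids across the enterocyte or that are known targets of the bile acid receptor FXR were followed in intestinal epithelial cells of lactating mice with and without RANK, the receptor activator of NF-κB. They were chosen by name, with no threshold on their values but with earlier results of these data known. They are the receptor Nr1h4, its target Nr0b2, the carriers Slc10a2, Fabp6, Slc51a, Slc51b, Abcc2 and Abcc3, the hormone Fgf15 and the transcription factor Osr2. All 10 had a row among the 54532 genes of the count table, 9 had a count in at least 1 library, and 6 had enough counts to be tested among 9855 genes. Epithelial cells came from intestine of WT and Rank-knockout mice at lactation day 5, with 4 libraries per genotype. In the study's methods, Rank was deleted in intestinal epithelium by a Cre driven from the Villin1 promoter acting on a floxed Rank allele, on a C57BL/6J background, and both genotypes were nursing dams. The labels give neither the intestinal segment nor the age, nor whether the WT mice carried Cre.

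Bile acids are made from cholesterol in the liver, reach the gut in bile and are taken back mostly in the distal small intestine. There the sodium-dependent carrier Slc10a2 brings them across the apical membrane, Fabp6 binds them in the cytosol, and the Slc51a and Slc51b proteins together form the basolateral exporter to portal blood. Inside the enterocyte bile acids activate FXR, the nuclear receptor encoded by Nr1h4, which pairs with RXR and raises Fabp6, Slc51a, Slc51b, Nr0b2 and Fgf15. FGF15 then travels to the liver, where it lowers bile acid synthesis.

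FXR with RXR binds best to an inverted repeat of the hormone receptor half-site with 1 base between the repeats, AGGTCANTGACCT, which reads the same on both strands. The 250 bases before the RefSeq gene start were held for 7 of the 10 genes (assembly GRCm38.p6). Among the same 250 bases of all 32851 promoters in the RefSeq table, 0.959% held a window with at most 2 of the 12 fixed letters different, and 9.63% one with at most 3. Of the 7, Fabp6 alone held windows with at most 2 letters different. Its stretch is shown for that reason and because it was the only gene of the set with a higher level in all Rank-knockout libraries. It lies at chr11:43601563-43601812 on the minus strand and is written 5′ to 3′, with both windows of at most 2 differences in capitals.

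Fabp6: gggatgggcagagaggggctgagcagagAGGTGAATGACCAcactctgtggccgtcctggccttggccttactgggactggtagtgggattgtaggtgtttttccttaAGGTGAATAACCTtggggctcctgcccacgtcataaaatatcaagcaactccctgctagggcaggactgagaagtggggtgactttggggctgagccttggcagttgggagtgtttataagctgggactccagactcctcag

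The first window starts 222 bases before the gene start (chr11:43601772-43601784) and differs from the repeat at C5G and T13A, where the repeat's base stands first and positions count from 1 at its 5′ end. The second starts 142 bases before it (chr11:43601692-43601704) and differs at C5G and G9A. The closest windows of genes whose Rank-knockout libraries all lay lower are printed for comparison, in capitals throughout, the first being taken where several were equally close. Slc51a and Slc51b had 3 letters different (chr16:32487946-32487958 and chr9:65422948-65422960, minus strand) and Abcc2 had 4 (chr19:43782259-43782271, plus strand). RefSeq and GENCODE place some starts differently: by the GENCODE positions given with each gene, the Abcc2 window and the Nr1h4 stretch lie inside the gene and the Slc51b window overlaps its 5′ end.

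Slc51a: AGGACTTTGTCCT

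Slc51b: GGGTCATTCACCC

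Abcc2: AGGTCAGGAGACT

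The closest windows of Nr1h4, Nr0b2 and Slc10a2 also had 4 letters different. These matches describe letters in the window and not binding.

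Total counts ran from 1530781 to 4335653 per library, WT replicate 2 being the only WT library above 1616024, so most genes with few counts were measured less precisely in WT. The libraries are 3′ tags, about 1 per transcript whatever its length, and levels are counts per 1000000 (CPM) of the TMM-scaled library size. Nothing in the labels beyond the word mouse says that each library is 1 animal, and p values measure the spread between these libraries. Counts of Tnfrsf11a, which encodes RANK, were 113, 196, 61 and 111 in WT and 128, 112, 79 and 179 in Rank-knockout, that is 60.2 ± 17.5 and 37.7 ± 8.57 CPM (SD, n = 4 each), with a log2 fold change (log2FC) of -0.67 (SE 0.22, adjusted p by edgeR = 0.032). Tags from the 3′ end need not lie in the deleted part, so this level does not check the labels.

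Among the 6 tested genes, the exporter gene Slc51b and the apical pump gene Abcc2 fell in Rank-knockout, and none rose. All 6 had a negative log2FC, with a median of -0.52 against 0.02 over all tested genes. Across all tested genes 14.6% were called lower, 15.8% higher and 30.4% either way, so 2 of 6 lower is to be read against that background. The genotypes' libraries were fully separated for Slc51a, Slc51b, Abcc2 and Abcc3, 4 of 6 where 28.8% of all tested genes did so. Of the 4 genes under the filter on low counts, Fabp6 was the only 1 whose libraries did not overlap, and it stood higher in Rank-knockout. In bulk samples, fewer cells of a type and less RNA per cell cannot be told apart.

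**Figure D1:**
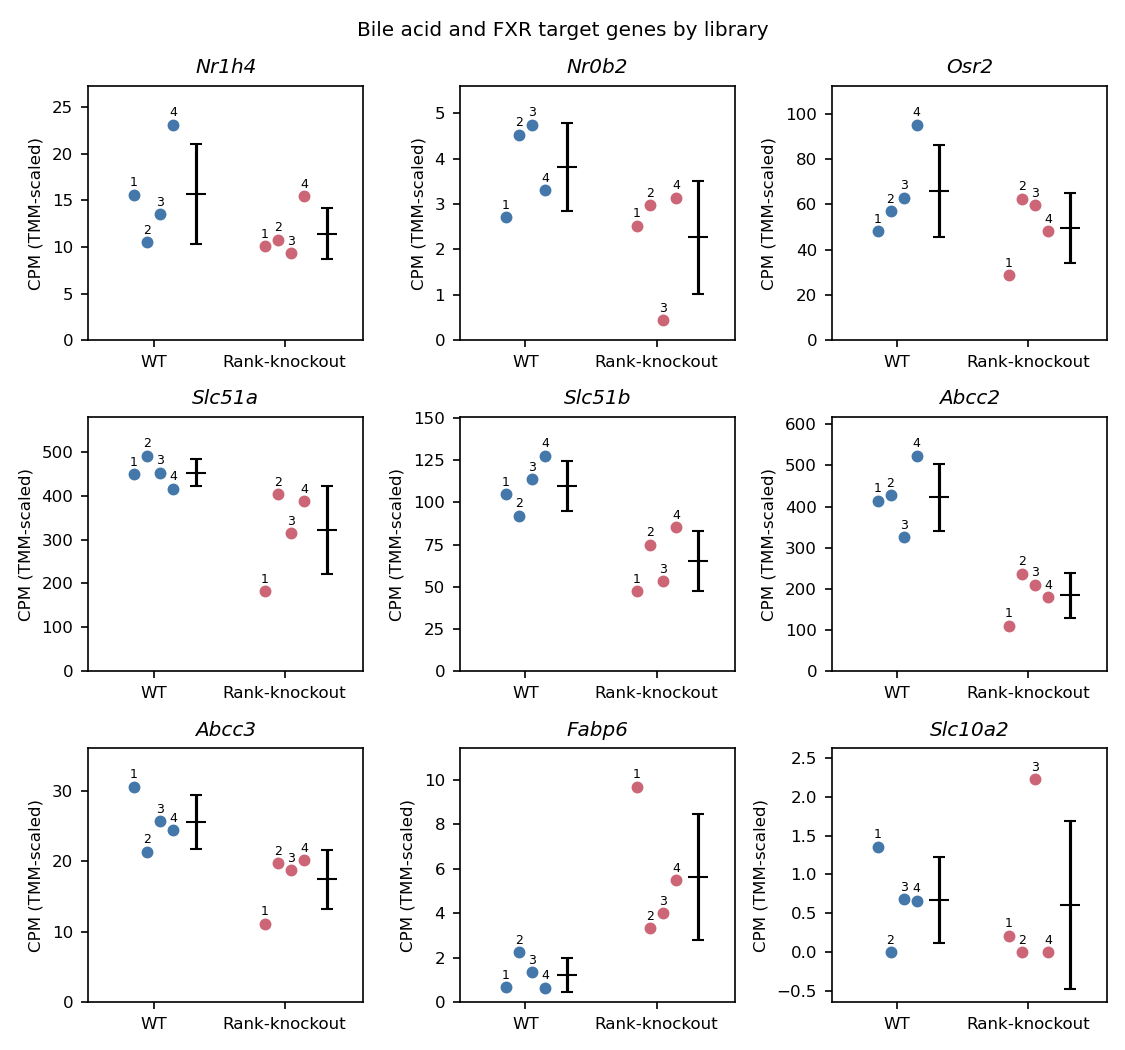
Level of 9 bile acid and FXR target genes in each library, in CPM with TMM-scaled library sizes on a linear axis of its own for each gene. Numbered points are the 4 WT and 4 Rank-knockout replicates, and the bar beside them is the mean ± SD. Slc51a, Slc51b, Abcc2 and Abcc3 sit lower in every Rank-knockout library than in any WT library, Fabp6 sits higher, and Fgf15 is not drawn because it had 0 counts.

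The receptor was examined first. Nr1h4 (ENSMUSG00000047638; GRCm38 chromosome 10, 89454234 to 89533585, minus strand) had 15.6, 10.6, 13.5 and 23.1 CPM in WT replicates 1 to 4 and 10.1, 10.8, 9.37 and 15.4 CPM in Rank-knockout replicates 1 to 4. The ranges overlapped, with WT replicate 4 the highest library. The means were 15.7 ± 5.35 and 11.4 ± 2.73 CPM (SD, n = 4 each), and the log2FC was -0.40 (SE 0.27, 95% confidence interval -0.97 to 0.18, adjusted p by edgeR = 0.28). It rested on 120 WT and 157 Rank-knockout counts, and without WT replicate 4 it was -0.19.

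Nr0b2 encodes SHP, a repressor that FXR induces (ENSMUSG00000037583; chromosome 4, 133553376 to 133556536, plus strand). It had 4, 18, 7 and 5 counts in WT and 12, 8, 1 and 12 in Rank-knockout, too few to pass the filter. The means were 3.82 ± 0.971 and 2.27 ± 1.24 CPM (SD, n = 4 each) with overlapping libraries, and an exact two-sided permutation test over the 70 assignments of libraries gave p = 0.11. A fold change of this size could not be told from the spread at this depth.

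Osr2, a zinc-finger transcription factor of the odd-skipped family, was the other regulator (ENSMUSG00000022330; chromosome 15, 35296098 to 35303305, plus strand). It had 48.2, 57.1, 63.0 and 95.1 CPM in WT and 28.6, 62.5, 59.8 and 48.1 CPM in Rank-knockout. Rank-knockout replicate 1 lay well below the WT range and replicate 4 just under it, while replicates 2 and 3 lay within it. The log2FC was -0.41 (SE 0.25, 95% confidence interval -0.95 to 0.12, adjusted p by edgeR = 0.23). It was -0.21 without Rank-knockout replicate 1 and -0.22 without WT replicate 4.

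Uptake and binding were examined next. Slc10a2, the apical bile acid carrier of the ileum (ENSMUSG00000023073; chromosome 8, 5083219 to 5105351, minus strand), had 2, 0, 1 and 1 counts in WT and 1, 0, 5 and 0 in Rank-knockout. These 10 counts were spread over both genotypes without a direction (exact permutation p = 1.0, two-sided). They are near the limit of detection and give no usable fold.

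Fabp6, the ileal bile acid binding protein (ENSMUSG00000020405; chromosome 11, 43596049 to 43601540, minus strand), had 1, 9, 2 and 1 counts in WT and 46, 9, 9 and 21 in Rank-knockout. In CPM these were 0.680, 2.26, 1.35 and 0.660 in WT and 9.69, 3.35, 4.01 and 5.49 in Rank-knockout. Every Rank-knockout library lay above every WT library, and WT replicate 2 and Rank-knockout replicate 1, which had nearly the same depth, held 9 and 46 counts.

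The mean of Fabp6 was 1.24 ± 0.755 CPM across WT and 5.64 ± 2.85 CPM across Rank-knockout libraries (SD, n = 4 each), a ratio of 4.55. The exact two-sided permutation test, added after the values were seen, gave p = 0.029, the smallest that 70 assignments allow. That p follows from the full separation of the libraries, was not adjusted and adds no further support. Fabp6 did not pass the filter on low counts. In a fit of all 20768 genes with a count, made after its values were seen and in which 8.54% were called higher, it reached a log2FC of 2.002 (SE 0.49, adjusted p by edgeR = 0.00069). Without Rank-knockout replicate 1, which held 46 of the 85 Rank-knockout counts, that value was 1.57 (adjusted p by edgeR = 0.053).

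The basolateral exporter was examined by subunit. Slc51a, its larger subunit OSTα (ENSMUSG00000035699; chromosome 16, 32474504 to 32487879, minus strand), had 449, 490, 452 and 416 CPM in WT and 183, 404, 314 and 387 CPM in Rank-knockout. All Rank-knockout libraries lay below all WT libraries, but replicate 2 came close at 404 and replicate 1 stood furthest down. The log2FC of -0.49 (SE 0.20, 95% confidence interval -0.91 to -0.07) did not pass the threshold over all genes (adjusted p by edgeR = 0.074). It was -0.29 without Rank-knockout replicate 1, and it passed without Rank-knockout replicate 2 (-0.62, adjusted p by edgeR = 0.048) or replicate 4 (-0.59, adjusted p by edgeR = 0.045).

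Slc51b, the partner subunit OSTβ (ENSMUSG00000053862; chromosome 9, 65412714 to 65422955, minus strand), had 105, 92.0, 114 and 127 CPM in WT and 47.4, 74.8, 53.5 and 85.2 CPM in Rank-knockout. The genotypes did not overlap, and the nearest libraries were WT replicate 2 and Rank-knockout replicate 4. The mean fell from 109 ± 14.9 to 65.2 ± 17.8 CPM (SD, n = 4 each), a log2FC of -0.74 (SE 0.19, adjusted p by edgeR = 0.0079). It lay between -0.90 and -0.60 with each library left out in turn and passed the threshold each time.

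Both subunits are needed for export. The ratio of Slc51a to Slc51b counts was 4.29, 5.33, 3.97 and 3.26 in WT and 3.87, 5.40, 5.88 and 4.54 in Rank-knockout. These ranges overlapped, and the difference between them was not tested.

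The efflux pumps followed. Abcc2, known as MRP2, exports conjugated bile acids and other anions at the apical membrane (ENSMUSG00000025194; chromosome 19, 43782192 to 43840740, plus strand). It had 414, 427, 325 and 523 CPM in WT and 111, 237, 210 and 179.9 CPM in Rank-knockout. The highest Rank-knockout library, replicate 2, lay well under the lowest WT library, replicate 3. The mean fell from 422 ± 80.9 to 185 ± 54.4 CPM (SD, n = 4 each), a log2FC of -1.20 (SE 0.21, 95% confidence interval -1.65 to -0.75, adjusted p by edgeR = 0.0011), the largest fall among the 6 tested genes. It lay between -1.34 and -1.01 with each library left out and stayed past the threshold.

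Abcc3, known as MRP3, is a basolateral pump of the same family (ENSMUSG00000020865; chromosome 11, 94343295 to 94392997, minus strand). It had 30.6, 21.4, 25.7 and 24.4 CPM in WT and 11.2, 19.7, 18.7 and 20.1 CPM in Rank-knockout. The genotypes did not overlap, though WT replicate 2 and Rank-knockout replicate 4 were close, and Rank-knockout replicate 1 stood apart from its group. The log2FC was -0.55 (SE 0.23, 95% confidence interval -1.02 to -0.07, adjusted p by edgeR = 0.076). Without Rank-knockout replicate 1 it was -0.36, and without WT replicate 2 it was -0.65 (adjusted p by edgeR = 0.047).

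Fgf15 is the hormone that FXR induces in the ileum (ENSMUSG00000031073; chromosome 7, 144896531 to 144900953, plus strand). It had 0 counts in all 8 libraries. A count of 0 allows, at 3 counts, up to 0.355 CPM over the WT libraries together and 0.222 CPM over the Rank-knockout libraries, for counting error alone.

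Rank-knockout replicate 1 was the lowest of its group for Slc51a, Slc51b, Abcc2, Abcc3 and Osr2 and the highest for Fabp6. All 6 tested genes kept a negative sign under every scaling, filter, tool and left-out library tried. Scaling by library totals moved the median of all genes by 0.20 and did not turn any of them.

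The intestinal region was examined by marker genes. Of 7 distal small intestine markers 5 were tested and 4 fell, 14.6% of all tested genes being called lower. They were Cubn and Amn, which form the receptor for the vitamin B12 complex, at log2FC values of -1.75 (adjusted p by edgeR = 0.00015) and -1.11 (adjusted p by edgeR = 0.00028), with Nts at -1.37 (adjusted p by edgeR = 0.020) and Clca4b at -1.28 (adjusted p by edgeR = 0.032). The other tested marker, Gcg, was at 0.50 (adjusted p by edgeR = 0.28), and Fabp6, itself an ileal gene, was higher in every Rank-knockout library. Of 8 proximal markers 7 were tested, all with a negative log2FC (median -0.87), and 2 fell: Lct, which encodes lactase, at -1.35 (adjusted p by edgeR = 0.00058) and Adh6a at -0.87 (adjusted p by edgeR = 0.0046). Slc40a1 at -1.09, Pdx1 at -1.002 and Fabp1 at -0.64 did not pass. Gata4, a transcription factor absent from the distal small intestine, stood at 35.2 ± 4.74 CPM (SD, n = 4) for WT and 31.0 ± 7.33 CPM (SD, n = 4) for Rank-knockout. The part of intestinal region in the results was not tested. Of 4 colon markers, Car1 and Insl5 had 1 count each and Aqp8 had 9 counts in WT against 6, while Lypd8 was expressed in both genotypes, at 429 ± 117 and 603 ± 102 CPM (SD, n = 4 each; log2FC 0.49, adjusted p by edgeR = 0.057).

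Markers of mature villus enterocytes moved with the same genotype. All 12 were tested and all 12 fell, where 14.6% of all tested genes were called lower, with a median log2FC of -1.01. Their summed level was 16345 to 23816 CPM across WT and 8572 to 13918 CPM across Rank-knockout libraries. All 12 replication and cell cycle genes rose, where 15.8% of all tested genes were called higher, with a median of 1.21. Of 7 general epithelial genes 2 fell (Epcam and Vil1) and 2 rose (Krt18 and Krt19), where 30.4% of all tested genes were called either way. The summed T cell markers were at 163 to 250 CPM for WT and 107 to 177 CPM for Rank-knockout, the stromal and muscle markers at 2.04 to 5.78 CPM and 1.78 to 8.19 CPM. The plasma and B cell markers summed to 29.1 to 93.1 CPM for WT and 6.24 to 40.6 CPM for Rank-knockout, with Igha at 59.1 ± 28.0 and 21.1 ± 13.2 CPM (SD, n = 4 each; log2FC -1.49, adjusted p by edgeR = 0.066) and Cd79a at 0. Endothelial markers summed to at most 4.76 CPM and hepatocyte markers to at most 7.58 CPM in any library, with Cdh5 and Serpina1a at 0.

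Some Paneth and goblet cell markers differed between genotypes. All 5 Paneth cell genes were tested and 3 rose, where 15.8% of all tested genes were called higher, with a median log2FC of 1.21, among them the antimicrobial gene Ang4 at 1.22 (adjusted p by edgeR = 0.0089) and the protease gene Mmp7 at 1.34 (adjusted p by edgeR = 0.043). Of 5 goblet cell genes 3 fell, where 14.6% of all tested genes were called lower, namely Muc2 at -0.58, Clca1 at -0.67 and Fcgbp at -0.64 (adjusted p by edgeR = 0.014, 0.021 and 0.0070), and Agr2 rose by 0.85 (adjusted p by edgeR = 0.00062). None of the 5 enteroendocrine or 2 tested tuft cell genes passed. The part of these cells in the results was not tested.

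Each tested gene was therefore set against the villus markers within each library, as its log2 CPM minus the mean log2 CPM of the 12 markers. That mean stood at 9.85 ± 0.24 for WT and 8.78 ± 0.16 for Rank-knockout (SD, n = 4 each), a difference of -1.06. The markers were chosen with earlier results of these data known, so no p value is given for their mean. Against it the differences between genotypes were 0.66 for Nr1h4, 0.65 for Osr2, 0.52 for Slc51a, 0.51 for Abcc3, 0.29 for Slc51b and -0.16 for Abcc2. Because the marker mean itself differed by -1.06, any gene that fell by less takes a positive value by arithmetic alone. That was so for 5 of these genes, while Abcc2 stood near the markers.

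Relative to the villus markers, only Nr1h4 had libraries that did not overlap, all 4 Rank-knockout libraries being higher (exact permutation p = 0.029, adjusted to 0.14 by the Benjamini-Hochberg method over the 6 genes). None of the 6 passed after adjustment, and 70 assignments allow no raw p under 0.029. With the 7 epithelial genes as reference in place of the villus markers all 6 differences were negative, from -1.14 for Abcc2 to -0.32 for Nr1h4. The exact permutation test then gave an adjusted p of 0.043 for Slc51a, Slc51b, Abcc2 and Abcc3. The direction of 5 of the 6 genes thus depended on the reference.

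**Figure D2:**
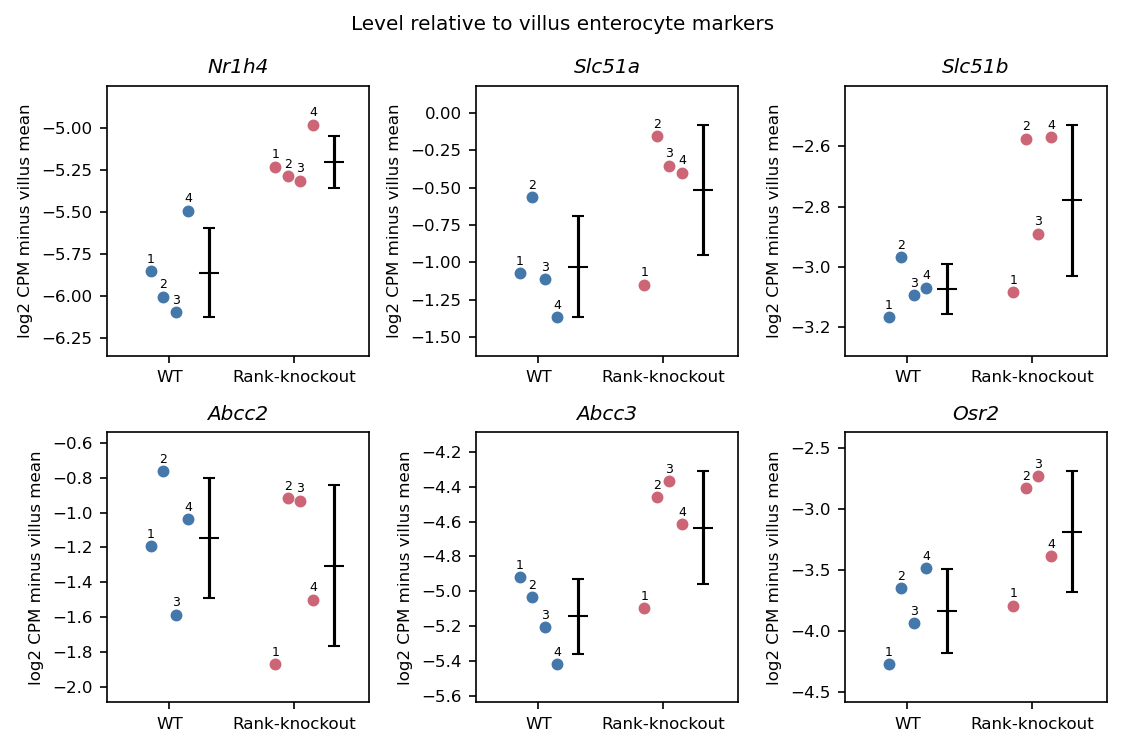
Level of each of the 6 tested genes relative to villus enterocyte markers, as log2 CPM of the gene minus the mean log2 CPM of the 12 markers, in 4 WT and 4 Rank-knockout libraries (numbered by replicate, bar at mean ± SD, an axis of its own for each gene that does not start at 0). The Nr1h4 libraries separate with Rank-knockout higher, by 0.66 on average, while those of Abcc2 overlap with a difference of -0.16.

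The wider pathway was described from lists of genes. Of 36 tested genes over the 6 lists, 16 were called lower (44.4%) and 2 higher (5.56%), where 14.6% and 15.8% of all tested genes were. With library totals 10 were called lower. Of 7 receptors beside FXR 5 were tested and 4 fell, with a median log2FC of -0.56. Vdr, the vitamin D receptor, which also binds lithocholic acid, averaged 491 ± 59.2 CPM across WT and 327 ± 35.9 CPM across Rank-knockout libraries (SD, n = 4 each), a log2FC of -0.59 (adjusted p by edgeR = 0.0061). The xenobiotic receptors Nr1i3 (CAR) and Nr1i2 (PXR) were at -0.75 (adjusted p by edgeR = 0.0092) and -0.56 (adjusted p by edgeR = 0.024), and the oxysterol receptor Nr1h3 (LXRα) was at -0.43 (adjusted p by edgeR = 0.033). The call of Nr1i2 was lost with library totals (adjusted p by edgeR = 0.12), without the 50 most abundant genes and when replicate 2 of WT or replicate 1, 2 or 3 of Rank-knockout was left out, where it was at -0.54 to -0.39. That of Nr1h3 was lost with library totals (adjusted p by edgeR = 0.21), without the 50 most abundant genes, with no filter and when replicate 2 or 3 of WT or any of those 3 of Rank-knockout was left out, where it was at -0.46 to -0.32. Gpbar1, the membrane receptor for bile acids, had 1 count in all.

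**Figure D3:**
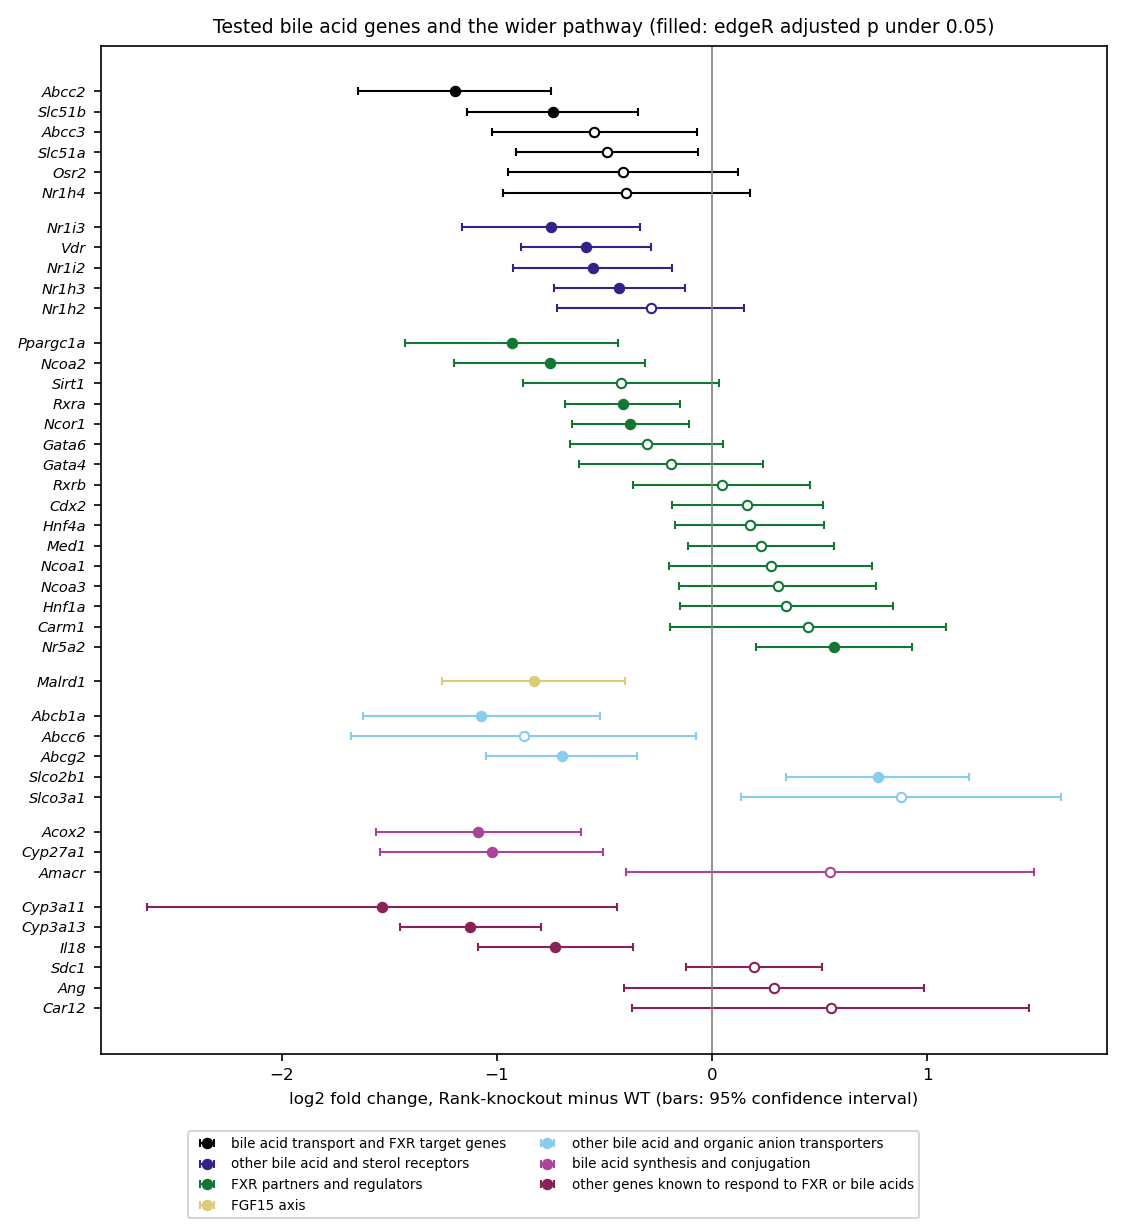
Log2 fold change of Rank-knockout minus WT for the 6 tested bile acid transport and FXR target genes (top, black) and for tested genes of 6 related lists (colours), from edgeR, with bars for the 95% confidence interval and filled points for an adjusted p under 0.05. Abcc2 at -1.20 and Slc51b at -0.74 are filled, the receptor list lies left of 0, and the FXR partners lie on both sides.

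Of 17 partners and regulators of FXR 16 were tested, 4 fell, 1 rose and 11 did not pass, with a median of 0.10. These 5 of 16 are near the 30.4% called either way among all tested genes, so the count says nothing particular about the group. Ppargc1a, a coactivator of FXR and of energy metabolism, fell from 203 ± 38.3 to 106 ± 42.4 CPM (SD, n = 4 each; log2FC -0.93, adjusted p by edgeR = 0.0085), and Ncoa2, another coactivator, fell by 0.76 in log2 units (adjusted p by edgeR = 0.013; with library totals the log2FC was -0.56, adjusted p by edgeR = 0.051). Rxra, the main partner of FXR, was lower at 164 ± 11.3 against 219 ± 11.6 CPM without overlap (log2FC -0.42, adjusted p by edgeR = 0.021), which did not hold under library totals (adjusted p by edgeR = 0.18), without the 50 most abundant genes (adjusted p by edgeR = 0.086), with no filter (adjusted p by edgeR = 0.10) or when replicate 4 of WT or replicate 1 or 3 of Rank-knockout was left out (-0.41 to -0.37). Nr5a2, the receptor LRH-1 that acts beside FXR on shared targets, rose by 0.57 (adjusted p by edgeR = 0.020), and this call was lost without WT replicate 1, 3 or 4 (lowest value 0.44). Ncor1, a corepressor named after its values were seen because it completes the 4, was at -0.38 (adjusted p by edgeR = 0.035), a call lost in 9 of 17 alternatives: with library totals (-0.18, adjusted p by edgeR = 0.26), without the 50 most abundant genes, with no filter, and with 6 of the 8 libraries left out in turn, the exceptions being replicate 2 of each genotype.

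Of the FGF15 axis, Malrd1, which promotes FGF15 production, was the only tested gene. It had 36.0, 36.7, 32.5 and 50.2 CPM in WT and 17.5, 19.4, 26.3 and 24.6 CPM in Rank-knockout, without overlap, and fell by 0.83 in log2 units (SE 0.20, adjusted p by edgeR = 0.0061). The hepatic receptor genes Fgfr4 and Klb had 9 counts in WT against 23 in Rank-knockout and 0 counts, respectively.

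Of 14 other bile acid and organic anion transporters 5 were tested. Abcg2 and Abcb1a, apical efflux pumps of wide range, fell by 0.70 (adjusted p by edgeR = 0.0055) and 1.07 (adjusted p by edgeR = 0.0074) on the log2 scale. Slco2b1, an uptake carrier of organic anions, rose by 0.77 (adjusted p by edgeR = 0.0093), and its relative Slco3a1 was at 0.88 (adjusted p by edgeR = 0.069) with Rank-knockout replicate 4 the lowest of all libraries at 7.84 CPM. Rank-knockout replicate 1 was the highest at 32.2 CPM. With each library left out in turn Slco3a1 was at 0.54 to 1.16, the highest value being that without Rank-knockout replicate 4 (adjusted p by edgeR = 0.0022). Slco3a1 passed in 6 of 17 alternatives. Reads of Abcb1a may be shared with its close copy Abcb1b, which makes its level less certain.

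Of 11 bile acid synthesis and conjugation genes 3 were tested and 2 fell, where 14.6% of all tested genes were called lower. Acox2, a peroxisomal oxidase that shortens the bile acid side chain, averaged 43.1 ± 9.63 CPM across WT and 20.7 ± 5.25 CPM across Rank-knockout libraries (SD, n = 4 each; log2FC -1.09, adjusted p by edgeR = 0.0024). Cyp27a1, the sterol 27-hydroxylase, fell by 1.03 in log2 units (adjusted p by edgeR = 0.0057), and the racemase gene Amacr was at 0.55 (adjusted p by edgeR = 0.37). With each library left out in turn Amacr was at 0.12 to 0.90. Cyp7a1 and Cyp8b1, which are liver genes, had 0 counts.

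Of 9 other genes known to respond to FXR or bile acids 6 were tested and 3 fell, where 14.6% of all tested genes were called lower. Cyp3a13 averaged 2799 ± 375 CPM across WT and 1284 ± 165 CPM across Rank-knockout libraries (SD, n = 4 each; log2FC -1.12, adjusted p by edgeR = 0.00021), and Il18, an epithelial cytokine, fell by 0.73 (adjusted p by edgeR = 0.0049). Cyp3a11 was at -1.54 (adjusted p by edgeR = 0.042), a call lost when replicate 1, 2 or 4 of WT or replicate 2 or 4 of Rank-knockout was left out, with library totals, without the 50 most abundant genes, with no filter, with thinning or with a term for replicate number, 10 of 17 alternatives in all (edgeR adjusted p up to 0.23). Sdc1 was at 0.19 (adjusted p by edgeR = 0.35). The Cyp3a genes are a family of near copies that may share reads, which makes their levels less certain.

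The genes whose levels ran most like each member were listed by the root mean square distance between log2 CPM values, each centred on its mean over the 8 libraries, among 9451 genes. Slc51a lay closest to Slc26a3, an apical chloride and bicarbonate exchanger (0.083), followed by Rps6kc1 and Rnf128. Slc51b lay closest to Ddx58 (0.085), Mical1 and March6, and Abcc3 to Pde9a (0.094), Acot9 and Marc2. Abcc2 lay closest to the cytochrome gene Cyp2d22 (0.14), the phosphate carrier family gene Slc17a4 and Sord, the sorbitol dehydrogenase. Nr1h4 lay closest to Fnip1 (0.12), Nbr1 and Sertad2, and Osr2 to Gadd45a (0.19), Thnsl1 and Zfp36. The median distance to all genes searched was 0.50 to 0.76, and all points share the genotype difference.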

How the data were processed

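Intestinal epithelial cells at lactation day 5 (4 WT and 4 Rank-knockout libraries) were profiled with a 3′ tag kit and single reads. According to its methods section, the authors used BBDuk to trim reads, removed abundant sequences with bowtie2, aligned to GRCm38 (mm10) with STAR and counted sense reads per gene with featureCounts. The deposited values are raw counts, without molecular identifiers, so the limits given for a gene without counts cover counting error only. Confidence intervals of the fold changes come from the edgeR fit and include the spread between libraries. Symbols and positions came from GENCODE M21 and upstream sequences from RefSeq GRCm38.p6. RefSeq upstream sequences of Fgf15, Abcc3 and Osr2 were not used here.

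Counts were tested with edgeR 4.0.16 (R 4.3.3): filterByExpr (minimum count 10), TMM, robust quasi-likelihood F-test with genotype as the only term, and Benjamini-Hochberg adjustment over 9855 genes (threshold 0.05). The test was tried on simulated data first. Genes under the filter were compared by exact permutation of CPM over 70 assignments, and log2 CPM had a prior count of 2. Alternatives were DESeq2 1.42.0, limma-voom (limma 3.58.1), RLE, scaling by totals or by totals less the 50 most abundant genes, dropping the filter or setting it at a mean of 5 CPM, thinning to the shallowest library, a replicate block, a prior count of 0.5, the epithelial reference and each library left out. The fits of Fabp6 without a filter and the permutations of genes under it were added after seeing the data.

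The 10 genes and all lists were chosen with earlier results of these data known. Of the listed genes, 2 are not reported here and were left out of their lists, for a reason unrelated to their values. The text names all 10; from other pathway lists every gene of lists of up to 3 and up to 4 measured genes in order of p from longer ones; markers that define a cell type or were at 0; and for each tested gene the 3 nearest genes averaging 5 CPM or more.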

Additional observations from a re-analysis of the deposited data

Results flagged for a closer look

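In 5 of 78 sets of 4 values, 1 library stood apart from the others of its genotype by Dixon's test, where chance gives 3.90. Abcc3 was at 11.2 CPM in Rank-knockout replicate 1 against 18.7 to 20.1 CPM in the other Rank-knockout libraries. The summed level of the FXR partners and regulators was 1299 CPM in the same library against 1485 to 1503 CPM. The summed endothelial markers were at 1.34 CPM in Rank-knockout replicate 3 against 2.23 to 2.35 CPM. The summed goblet cell markers were at 4051 CPM in WT replicate 3 against 4754 to 4895 CPM. Total counts of WT replicate 2 were 4335653 against 1530781 to 1616024 in the other WT libraries.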

How the results depend on the processing

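The calls of Slc51b and Abcc2 held under all 17 alternatives, at -0.90 to -0.55 and -1.34 to -1.01 on the log2 scale, and Nr1h4 and Osr2 passed under none, at -0.60 to -0.19 and -0.55 to -0.21. Slc51a passed with no filter (-0.46) and with the replicate number as a block (-0.55), and was at -0.62 to -0.29 with each library left out. Abcc3 was then at -0.65 to -0.36 and Fabp6, without a filter, at 1.57 to 2.70. Fabp6 was called higher with no filter (count 1), and with each library left out 0 to 1 genes of the set were. Fabp6 passed the filter only without WT replicate 1, 3 or 4, through its Rank-knockout counts, where it is high, so those calls are no support. Library totals gave 859 genes lower and 2566 higher over the whole table, 74.9% of calls then being higher against 52.0%, and 10 lower in the pathway lists. Leaving out each library gave 1097 to 1564 lower and 1020 to 1718 higher, and 12 to 15 lower and 1 to 3 higher in the pathway lists. With the epithelial reference Nr1h4 was at -0.32, Slc51a -0.47, Slc51b -0.69, Abcc2 -1.14, Abcc3 -0.47 and Osr2 -0.33. Against the villus markers Abcc2 was at -0.31 to 0.027 with each library left out. Signs turned for uncalled genes: Rxrb when replicate 1, 3 or 4 of WT or replicate 3 of Rank-knockout was left out (range -0.093 to 0.26) and Gata4 with library totals (0.0042). The causes were not tested. Replicate numbers did not pair the libraries (correlations 0.05, 0.15, -0.14 and 0.32, and not every library correlated best with its own number), and the block changed the call of Slc51a among the 6 tested genes. At these depths the counts of Fgf15, Slc10a2 and Nr0b2 were too few for the test, and why they were low was not tested.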
